A study of Rattus norvegicus with 6 samples.

Results

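The solute carriers other than amino acid transporters were described in RUCA-I cells, an epithelial line from an endometrial adenocarcinoma of the Lewis rat. Members were taken by symbol, as all tested genes named Slc with a family and a carrier number, leaving out the amino acid families Slc1, Slc3, Slc6, Slc7, Slc36 and Slc38. Slc2a1, Slc16a1, Slc16a3, Slc11a2 and Slc40a1 were left out as well. This gave 149 genes of 11778 tested symbols, in 36 families and 16 groups by substrate. A symbol with several rows was represented by its longest locus.

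Solute carriers are membrane proteins that move small molecules and ions across the plasma membrane and the membranes of organelles, by facilitated diffusion, exchange or coupling to an ion gradient. They are numbered in families by sequence, and most families share a kind of substrate. The gradient that many of them use is set up by the sodium pump, and in acidic organelles by the proton pump. In the lining of the uterus, epithelial carriers supply the cells with nutrients and set the ions and bicarbonate of the uterine fluid.

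Untreated cells were grown close to confluence in DMEM/F12 medium with fetal calf serum, and their total RNA was sequenced in 2 groups, 3 wild-type (WT) batches and 3 separately made lines labelled miR-203 -/- (KO). The deposited file gives 1 FPKM value (a fragment level corrected for transcript length and library size) for each gene row in each group. No value per sample, no SD and no read depth stands behind a level here. The test against replicate spread is that of the authors' Cuffdiff run, and a gene was called changed at a deposited q under 0.05. WT samples are batches of the parent line and KO samples are lines of their own, so the lost microRNA and other differences between lines cannot be told apart. Nor can fewer cells that express a gene be told apart from less RNA per cell.

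Epithelial markers fitted the label. Of 7 chosen, 6 had a tested row, from 103 FPKM for Krt18 to 501 for Epcam in WT cells, and none was called. Of 24 markers of other tissues, only 5 had a tested row. These were Cd79a (31.7 FPKM in WT and 23.9 in KO cells), Col1a1 (1.43 and 1.17), Myh11 (1.20 and 2.80), Acta2 (1.05 and 1.52) and Csf1r (0.791 and 0.2004, called lower in the authors' deposited table with q = 0.0187). The 5 leukocyte markers summed to 32.5 (WT) and 24.1 FPKM (KO) over the 2 with a tested row, and the part of such cells in the results was not tested.

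The microRNA that the KO lines lack by label has the mature sequence below, shown with its seed (bases 2 to 8, which pair with target messages) in capitals. It is taken from RefSeq on GRCr8, where it lies at chr6:137020756-137020777 on the plus strand. miR-203 itself was not measured in the values used here, so its loss rests on the labels.
rno-miR-203a-3p: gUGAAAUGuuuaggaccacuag

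Few solute carriers differed between WT and KO cells. Of the 149 members, 1 rose, 2 fell and 146 did not pass, which is 2.01% called. Over all tested symbols, taken in the same way, 1.93% were called (0.849% higher and 1.08% lower), and over all tested rows 1.05%. The members' share was thus near the background. An unadjusted p under 0.05 in the authors' deposited table was found for 22 members (14.8%), 10 higher and 12 lower, against 9.18% of tested symbols.

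The differences were small. The mean of WT and KO reached 1 FPKM in 138 members. Ratios are given as log2((KO + 1)/(WT + 1)), where the added 1 FPKM understates changes of low genes. Their median was 0.0021, with quartiles of −0.096 and 0.093. All tested symbols with that mean gave a median of −0.0033 and quartiles of −0.093 and 0.093. A difference under 0.2 in either direction was seen in 102 of the 138 members (73.9%) and in 79.7% of tested symbols. KO values were below WT values in 68 of the 138 members, or 49.3%, and in 51.2% of tested symbols.

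Members covered a wide range of levels. The median member stood at 9.02 (WT) and 8.74 FPKM (KO), and the median tested symbol at 12.9 and 13.0. A mean of at least 10 FPKM was reached by 69 members and of at least 100 by 7. The highest of these, Slc9a7 (a sodium-proton exchanger of the Golgi), stood at 6150 (WT) and 5939 FPKM (KO), but its locus is listed with 131 bases. Slc27a5 (a bile acid and fatty acid ligase, 443 and 418 FPKM over 269 bases) and Slc22a2 (an organic cation carrier, 171 and 126 FPKM over 124 bases) also rest on loci under 300 bases, for which FPKM is unreliable. Among longer loci the highest was Slc25a3, the mitochondrial phosphate carrier, at 390 (WT) and 385 FPKM (KO).

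**Figure D1:**
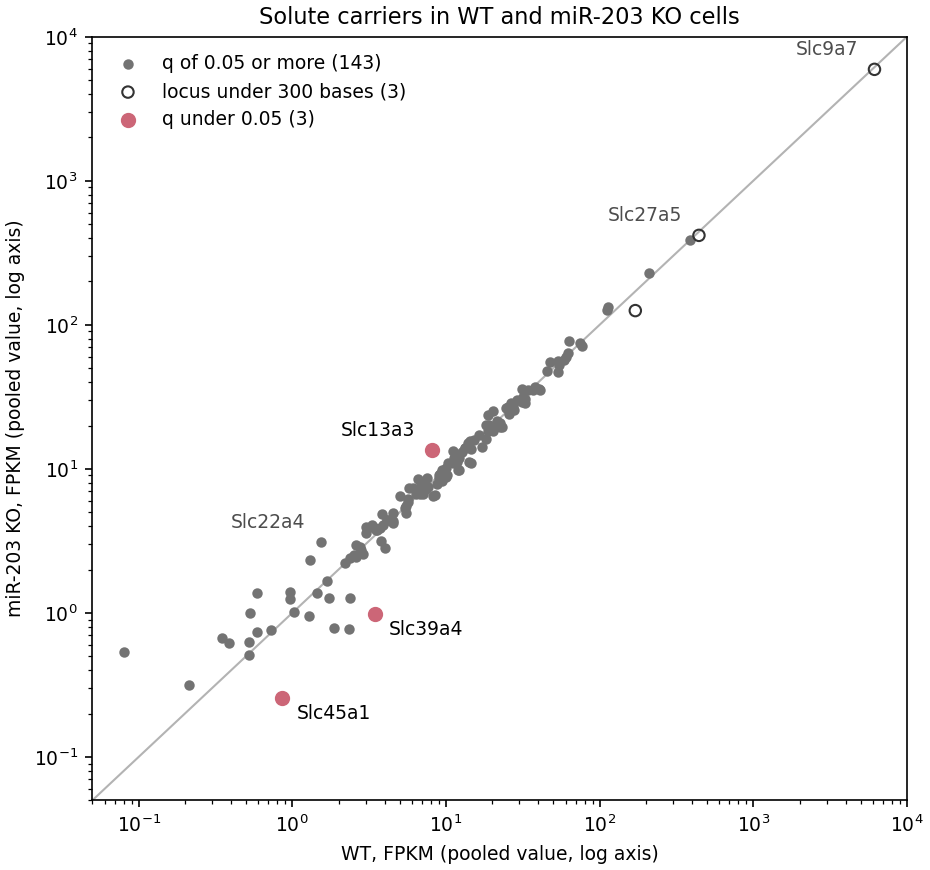
FPKM of the 149 solute carriers in WT (x axis) and miR-203 KO cells (y axis), both on log axes, with 1 pooled value per group and equality drawn as a line. Most points lie on the line from under 1 to the highest levels; Slc39a4 and Slc45a1 lie below it and Slc13a3 above it, and open circles mark loci under 300 bases.

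Slc13a3 was the only member that rose. It encodes the sodium-coupled dicarboxylate carrier NaDC3, which takes up succinate and other intermediates of the citric acid cycle. Its locus on rn6 (chromosome 3, 162084326 to 162105902, as the authors list it) stood at 8.08 (WT) and 13.4 FPKM (KO). This is a 1.66-fold increase, with a log2 fold of 0.73, p = 5e-05 and q = 0.00756 per the authors' deposited table. The p is the smallest the table holds, and Slc39a4 and Slc45a1 share it. The related Slc13a2 (NaDC1) stood at 0.3898 (WT) and 0.614 FPKM (KO) and did not pass.

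Slc39a4 fell. It encodes ZIP4, a plasma membrane importer of zinc known from intestinal uptake and from the zinc deficiency disorder acrodermatitis enteropathica. Its locus (chromosome 7, 117675717 to 117680110) stood at 3.43 (WT) and 0.986 FPKM (KO). The decrease was 3.48-fold, with a log2 fold of −1.80 and q = 0.00756 per the authors' deposited table. With the pseudocount of 1 the difference was −1.16, since the KO value lies near that pseudocount.

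Slc45a1 fell as well, at a low level. It encodes a proton-associated sugar carrier known mainly from brain. Its locus (chromosome 5, 167672146 to 167688074) stood at 0.859 (WT) and 0.256 FPKM (KO), a 3.35-fold decrease with a log2 fold of −1.74 and q = 0.00756 per the authors' deposited table. With the pseudocount of 1 the difference was −0.57. When only rows averaging 1 FPKM or more entered the adjustment, Slc45a1 was not among them and Slc30a4 was called in its place, so the count stayed at 3.

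The 250 bases before the start of Slc13a3, Slc45a1 and Slc30a4 are shown for 2 of the 3 called members and for the zinc exporter nearest the threshold. The third called member, Slc39a4, is named only. They come from RefSeq on GRCr8, matched by symbol, and 117 of 149 members had such an entry. Capitals mark matches on either strand to 4 motifs chosen after the values were seen. These are the E-box CACGTG, found in 5.59% of all 33469 windows of that length, and the cyclic AMP response element TGACGTCA, found in 1.59%. The others are the antioxidant response element core TGACNNNGC, found in 10.1%, and the metal response element core TGCACNC or TGCGCNC, found in 20.6%. Among the 121 windows of members the shares were higher, at 13.2% for the E-box, 4.13% for the cyclic AMP response element, 19.0% for the antioxidant core and 34.7% for the metal response core. All 4 were thus higher together. The windows were not matched for base composition or expression, so these shares are not read as an enrichment. Of 14 windows of zinc carriers, 6 held the metal response core. The letters alone are a description and do not show a bound site.
Slc13a3 (chr3:174623894-174624143, minus strand): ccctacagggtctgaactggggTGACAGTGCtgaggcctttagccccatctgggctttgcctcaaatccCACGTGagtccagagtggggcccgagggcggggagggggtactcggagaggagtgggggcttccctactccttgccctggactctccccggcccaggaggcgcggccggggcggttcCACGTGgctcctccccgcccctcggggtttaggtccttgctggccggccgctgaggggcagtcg
Slc45a1 (chr5:166412184-166412433, minus strand): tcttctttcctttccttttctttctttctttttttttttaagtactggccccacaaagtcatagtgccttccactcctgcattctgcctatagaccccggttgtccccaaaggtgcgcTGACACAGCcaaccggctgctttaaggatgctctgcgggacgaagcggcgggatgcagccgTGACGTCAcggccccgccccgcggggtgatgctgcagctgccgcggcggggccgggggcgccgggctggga
Slc30a4 (chr3:130228889-130229138, minus strand): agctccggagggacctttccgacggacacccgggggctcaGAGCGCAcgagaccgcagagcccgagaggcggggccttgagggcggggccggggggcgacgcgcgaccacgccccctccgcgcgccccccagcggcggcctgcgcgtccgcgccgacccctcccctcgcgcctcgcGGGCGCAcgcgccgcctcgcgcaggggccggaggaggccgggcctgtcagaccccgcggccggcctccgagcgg

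The Slc13a3 window holds 2 E-boxes and 1 antioxidant core. The Slc45a1 window holds 1 cyclic AMP response element and 1 antioxidant core, and the Slc30a4 window 2 metal response cores. The window of Slc22a4, which is no zinc carrier, holds 4 metal response cores and 1 antioxidant core.

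Zinc carriers lay mostly on the lower side. Slc30 proteins (ZnT) move zinc out of the cytosol, into organelles or out of the cell, and Slc39 proteins (ZIP) move it into the cytosol. All 17 had a mean of at least 1 FPKM; Slc39a4 fell and 16 did not pass. KO values were below WT values in 12 of the 17, 5 of 7 Slc30 and 7 of 10 Slc39 genes, against 51.2% of tested symbols with that mean. The 12 include Slc39a1, Slc30a9 and Slc39a5, with log2 ratios of only −4.6e-05, −0.0023 and −0.0046. Under quantile normalization 10 of the 17 were lower, against 6230 of the 11778 symbols. With KO scaled to the summed FPKM 16 were lower, where 9557 of the 11778 symbols are lower. The median log2 ratio was −0.095. Summed over the group, FPKM came to 282 (WT) and 268 (KO).

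Besides Slc39a4, 3 zinc carriers had an unadjusted p under 0.05, and the KO value was the lower in each. Slc30a4, which loads zinc into secretory and endosomal vesicles and lies on chromosome 3 (114805922 to 114828199), stood at 14.7 (WT) and 10.9 FPKM (KO), with p = 0.00065 and q = 0.0587 per the authors' deposited table. Slc30a1, the zinc exporter of the plasma membrane, stood at 8.27 and 6.49 FPKM, with p = 0.007 and q = 0.319 per the authors' deposited table. Slc39a6, the importer also called LIV-1, stood at 14.2 and 11.1 FPKM, with p = 0.0063 and q = 0.298 per the authors' deposited table. None of the 3 passed.

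The zinc carrier at the highest level, Slc30a5, which serves the early secretory pathway, stood at 31.1 (WT) and 29.0 FPKM (KO). Slc39a1, a widespread plasma membrane importer, was level at 27.3 FPKM in each. The importers Slc39a10 (22.5 and 19.6 FPKM) and Slc39a14 (10.1 and 8.74) were lower without passing. The vesicular Slc30a3 stood at 3.83 (WT) and 4.86 FPKM (KO), on a row that it shares with a locus that has no gene name. Mt2A, a metallothionein that binds free zinc and is switched on by it, stood at 255 (WT) and 262 FPKM (KO) (q = 0.997 per the authors' deposited table).

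**Figure D2:**
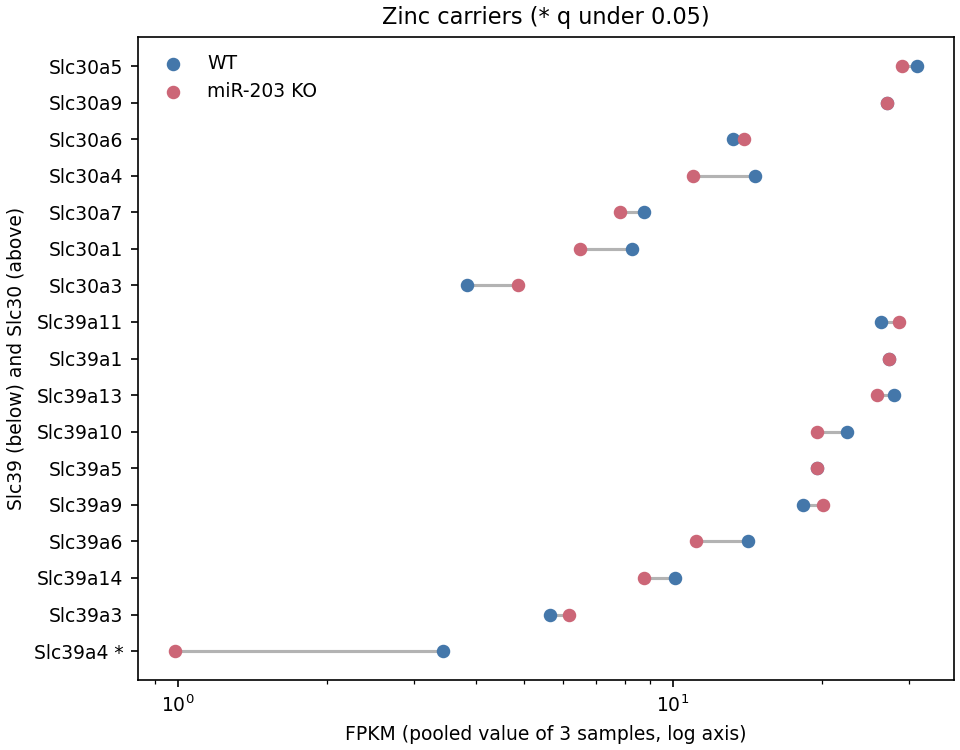
FPKM of the 17 zinc carriers in WT (blue) and miR-203 KO cells (red) on a log axis, Slc30 genes above and Slc39 genes below, each point 1 pooled value. Slc39a4 spans 3.43 to 0.986 FPKM and is the single gene with q under 0.05; the other pairs lie close together, with the red point to the left in 11 of 16.

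Copper and magnesium carriers were level. The 5 members, with a median log2 ratio of −0.031, lay within 0.2 of equality. Slc31a1, the copper importer CTR1, stood at 18.9 (WT) and 18.4 FPKM (KO). Slc41a1, a magnesium exporter, stood at 13.4 and 14.0 FPKM.

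Carriers of bicarbonate, sulfate, iodide and dicarboxylates lay mostly on the higher side. The single call was the dicarboxylate carrier Slc13a3, placed here with its family Slc13, which also holds sulfate carriers. None of the 12 genes of families Slc4 and Slc26 was called. The group has 14 members, of which 12 had a mean of at least 1 FPKM. KO values were above WT values in 9 of these 12, and the median log2 ratio was 0.11. Of the 10809 tested symbols with that mean, 5276 were higher. Over all 14, 11 were higher as deposited and under quantile normalization. With KO scaled to the summed FPKM, 7 of the 14 were higher, where 2221 of the 11778 symbols are higher. Slc4a1ap, which the symbol rule brings in, is kanadaptin, an adaptor protein and no carrier (37.1 and 35.3 FPKM). On the rows kept, the chloride, iodide, sulfate and bicarbonate exchangers of family Slc26 were higher in KO cells in all 7 members. Of all 11778 tested symbols, 5829 were higher. WT levels ran from 0.5896 FPKM for Slc26a2 to 18.8 for Slc26a4. Slc26a6 and Slc26a11 have 2 rows each, 1 higher and 1 lower in KO cells. None of the 7 passed. All 7 stayed higher under quantile normalization. With KO scaled to the summed FPKM, 4 of the 7 turned lower, where 9557 of the 11778 symbols are lower.

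Slc26a4, or pendrin, an exchanger of chloride for iodide or bicarbonate, stood at 18.8 (WT) and 23.6 FPKM (KO), with p = 0.0079 and q = 0.347 per the authors' deposited table. KO exceeded WT in 4 of its 5 rows. Slc4a11, a plasma membrane carrier important in the corneal endothelium, was the highest of the group at 111 (WT) and 128 FPKM (KO) (p = 0.0748 per the authors' deposited table). Slc4a7, a sodium-bicarbonate cotransporter that brings base into the cell, stood at 12.1 and 9.78 FPKM, with p = 0.0188 and q = 0.576 per the authors' deposited table. The anion exchanger Slc4a2 stood at 12.2 and 11.9 FPKM.

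Phosphate carriers had no call among 3. Slc20a1 (PiT1), a sodium-phosphate importer found in most cells, stood at 76.7 (WT) and 70.9 FPKM (KO). Slc34a2 (NaPi-IIb), the sodium-phosphate cotransporter of lung and other epithelia, stood at 62.9 and 76.7 FPKM, with p = 0.0108 and q = 0.415 per the authors' deposited table. On the rows kept, the order of the pair was reversed between WT and KO cells, by differences that did not pass. Slc20a1 has 3 rows on the same locus, the others at 31.9 and 28.2 and at 14.1 and 14.3 FPKM. The order of the pair thus depends on whether those rows are counted.

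Carriers of sodium, potassium, chloride, protons and calcium had no call among 15. Their median log2 ratio was 0.017 over the 12 with a mean of at least 1 FPKM. Within the cation-chloride family, Slc12a7 (KCC4, which lets potassium and chloride out) stood at 20.2 (WT) and 25.1 FPKM (KO), with p = 0.00715 and q = 0.324 per the authors' deposited table. Slc12a4 (KCC1, of the same direction) stood at 3.99 and 2.84 FPKM, with p = 0.0316 per the authors' deposited table. Slc12a2 (NKCC1), which brings sodium, potassium and chloride in, stood at 53.9 and 46.8 FPKM, with p = 0.0642 per the authors' deposited table. These 3 members thus did not share a direction.

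Among sodium-proton exchangers, Slc9a4, a basolateral form known from stomach, stood at 1.74 (WT) and 1.27 FPKM (KO), with p = 0.0429 and q = 0.804 per the authors' deposited table. The symbol rule also takes Slc9a3r1 and Slc9a3r2, the scaffold proteins NHERF1 and NHERF2 that anchor Slc9a3 and other membrane proteins in the apical domain. Slc9a3r1 stood at 209 and 228 FPKM, and Slc9a3r2 at 3.01 and 3.92.

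Sugar and polyol carriers, 10 in all, had Slc45a1 as the single call, and 7 of the 10 were lower in KO cells. The median log2 ratio was −0.051. Slc2a3 (GLUT3), a high-affinity glucose carrier, stood at 1.87 (WT) and 0.781 FPKM (KO), with p = 0.018 and q = 0.566 per the authors' deposited table. These values are of the row kept. Slc2a3 has 4 rows, 3 lower and 1 higher in KO cells, reaching up to 84.2 (WT) and 44.0 FPKM (KO). Slc45a3 (prostein) stood at 2.36 and 1.26 FPKM, with p = 0.0663 per the authors' deposited table. Its deposited FPKM values differ 1.87-fold, while its deposited log2 fold of −1.06 is larger, and the ratio with the pseudocount of 1 is −0.57. Slc45a4, the third of that family, was level at 7.59 and 7.45 FPKM. Slc37a3, the highest of the group on the rows kept, stood at 45.6 and 48.1 FPKM, and Slc50a1 (SWEET1), a sugar exporter, at 32.5 and 28.5.

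Mitochondrial carriers, the largest group, were level. These Slc25 proteins exchange nucleotides, phosphate and metabolites across the inner membrane. None of 35 was called, the median log2 ratio was −0.022, and 28 of the 34 with a mean of at least 1 FPKM lay within 0.2 of equality. Summed over the group, FPKM came to 1207 (WT) and 1206 (KO). The citrate carrier Slc25a1 stood at 38.2 and 36.8 FPKM and the oxoglutarate carrier Slc25a11 at 60.7 and 59.6.

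An unadjusted p under 0.05 in the authors' deposited table was found for 4 mitochondrial carriers. Slc25a4, the ADP/ATP carrier ANT1, stood at 114 (WT) and 134 FPKM (KO), with p = 0.0358 per the authors' deposited table. The other 3 had lower KO values. Slc25a36, a pyrimidine nucleotide carrier, stood at 8.47 and 6.61 FPKM, with p = 0.00675 per the authors' deposited table. Slc25a25, which moves ATP-magnesium against phosphate, stood at 17.1 and 14.1 FPKM, with p = 0.027 per the authors' deposited table. Slc25a37 (mitoferrin 1), an iron importer, stood at 23.1 and 19.6 FPKM, with p = 0.0404 per the authors' deposited table. Their q-values lay between 0.313 and 0.789.

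**Figure D3:**
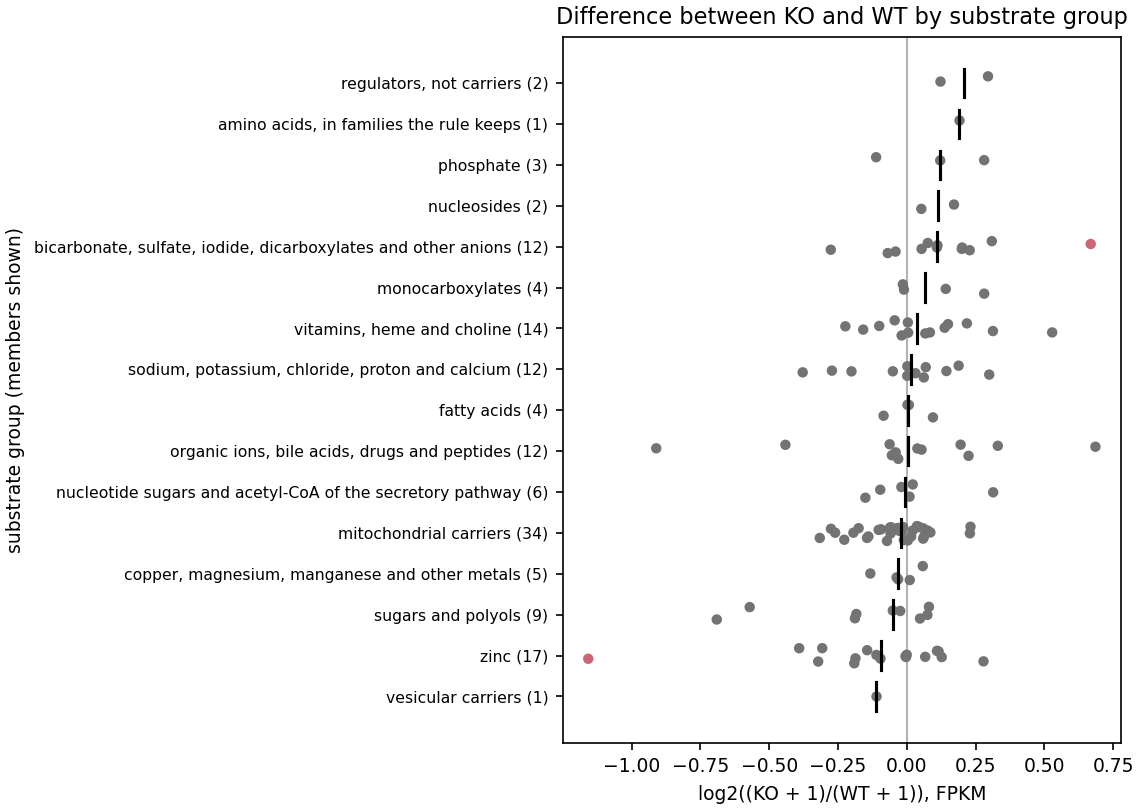
Log2((KO + 1)/(WT + 1)) of the 138 solute carriers with a mean of at least 1 FPKM, by substrate group, with 1 point per gene and a bar at the group median. Medians run from −0.113 to 0.209, the groups with 9 or more points overlap around 0, and the 2 red points are Slc39a4 (zinc) and Slc13a3 (in the group of bicarbonate, sulfate, iodide and dicarboxylate carriers), called at q under 0.05; Slc45a1 lies under that mean.

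Vitamin, heme and choline carriers had no call among 14, with a median log2 ratio of 0.036. Slc52a3 (RFVT3), a riboflavin importer, stood at 1.297 (WT) and 2.31 FPKM (KO), with p = 0.0153 and q = 0.519 per the authors' deposited table. The choline carrier-like family Slc44 was higher in all 4 members without a call. With KO scaled to the summed FPKM, 1 of the 4 turned lower, where 9557 of the 11778 symbols are lower. Slc44a2 stood at 5.04 and 6.51 FPKM (p = 0.0389 per the authors' deposited table), and Slc44a1, the highest of the group, at 47.6 and 55.6 (p = 0.0812 per the authors' deposited table). The reduced folate carrier Slc19a1 stood at 32.6 and 30.3 FPKM and the thiamine carrier Slc19a2 at 18.1 and 16.2.

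Organic ion, bile acid, drug and peptide carriers had no call among 12, with a median log2 ratio of 0.0040. Slc22a4 (OCTN1), which takes up the antioxidant ergothioneine, stood at 1.55 (WT) and 3.09 FPKM (KO), a log2 fold of 1.002 with p = 0.0009 and q = 0.0756 per the authors' deposited table. Its neighbour Slc22a5 (OCTN2), the carnitine importer, stood at 6.12 and 7.32 FPKM with p = 0.119 per the authors' deposited table. The table holds 8 rows for Slc22a4, each of them higher in KO cells, from 0.305 to 1.85 FPKM in WT and from 1.12 to 6.33 in KO cells. They belong to 1 gene and are not replicates. The row kept is the first listed of those that tie for the longest locus. The other rows had p from 0.129 to 0.931 per the authors' deposited table.

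Other organic ion carriers did not pass either. Slc22a18, a putative organic cation carrier in an imprinted region, stood at 6.58 (WT) and 8.54 FPKM (KO), with p = 0.0252 and q = 0.667 per the authors' deposited table. Slc22a2, on the short locus given above, had p = 0.1804 per the authors' deposited table.

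The remaining groups were level or small. Among monocarboxylate carriers, 4 of 6 were higher in KO cells and none was called; Slc16a13 was the highest at 9.32 (WT) and 9.22 FPKM (KO). Among carriers of nucleotide sugars and acetyl-CoA in the secretory pathway, Slc35a5 stood at 5.75 and 7.40 FPKM, with p = 0.0182 and q = 0.571 per the authors' deposited table, and none of 6 passed. Slc35a4, the highest of them, stood at 40.05 and 35.98 FPKM. Fatty acid carriers on loci over 300 bases were level, with Slc27a4 at 31.5 and 31.7 FPKM.

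Nucleoside carriers gave 2 members, of which Slc29a4, a monoamine carrier of the nucleoside family, stood at 7.57 and 8.65 FPKM. The lysosomal sialic acid exporter Slc17a5 stood at 2.87 and 2.58 FPKM. Slc43a2 (LAT4), which carries neutral amino acids in a family that the rule keeps, stood at 3.02 and 3.58 FPKM.

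**Figure D4:**
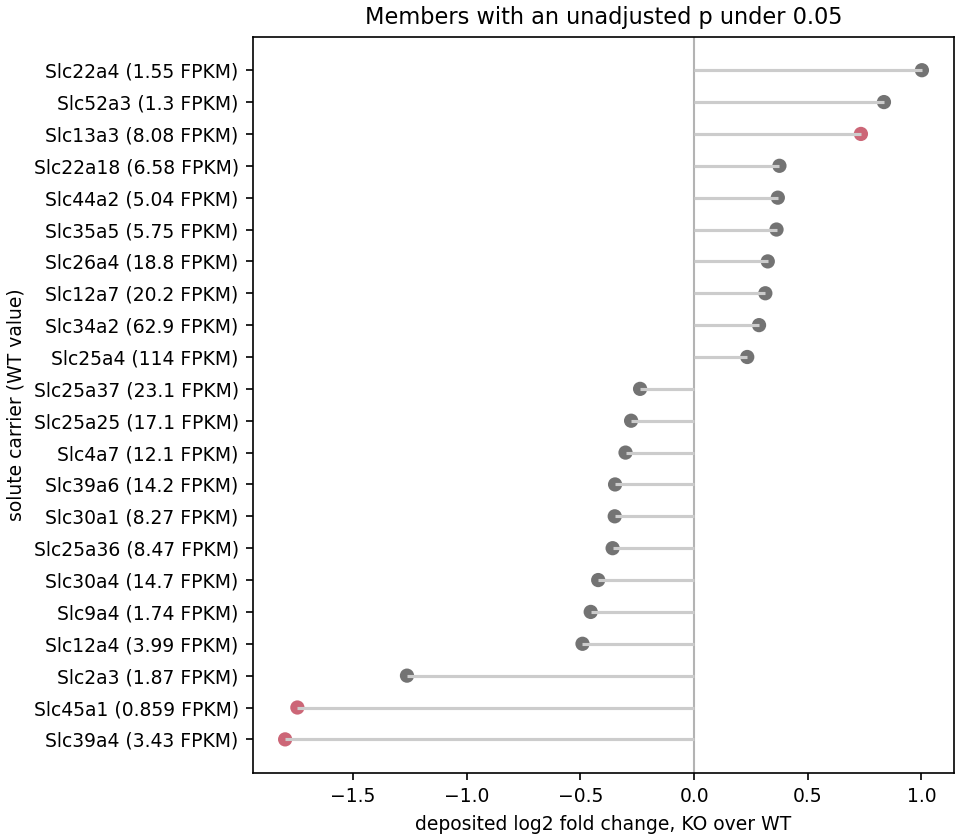
Deposited log2 fold change of KO over WT for the 22 solute carriers with an unadjusted p under 0.05 in the authors' deposited table, with the WT value in brackets. Red points are the 3 with q under 0.05; they and Slc22a4, Slc52a3 and Slc2a3 lie beyond 0.7 in either direction, and 16 others lie within 0.5.

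By position, members on chromosome 3 beyond 120 Mb were mostly higher, as were other genes there. Of the 6 members, 5 had the KO value above the WT value, with a median log2 ratio of 0.19. Slc13a3, Slc52a3 and Slc4a11 are among them, with Slc9a8 (31.2 and 35.7 FPKM) and the ascorbate carrier Slc23a2 (6.98 and 7.002), while Slc20a1 was the 1 that was lower. Over all 347 tested symbols of that stretch, 305 were higher, against 5829 of all 11778 tested symbols, and the median was 0.15. With KO scaled to the summed FPKM, 182 of the 347 were higher, against 2221 of all 11778. That median of 0.15 compares with a log2 ratio of 0.67 for Slc13a3. The part of this regional shift in the value of Slc13a3 was not tested.

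Genes that work with solute carriers were taken from 7 lists of 123 symbols, of which 78 had a tested row. Of these, 3 rose, 3 fell and 72 did not pass, which is 7.69% called against 1.93% of tested symbols. Of the 7, 4 lists held a call, the sodium pump, kinase, carbonic anhydrase and proton pump lists. The lists differ in size, and none was tested as a set. They were chosen with earlier results of these data known, so their share called is a description and no independent support.

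In the sodium pump list, 2 of 6 genes fell and none rose. The subunit Atp1b1, which helps the pump reach the plasma membrane, stood at 120 (WT) and 122 FPKM (KO). The calls were 2 of the 3 tested FXYD regulators of the pump. Fxyd4 (CHIF), which raises the pump's affinity for sodium, fell, from 162 FPKM in WT to 117 in KO cells, at q = 0.0236 per the authors' deposited table. Fxyd5 (dysadherin), which also weakens cell adhesion, fell, from 30.04 FPKM in WT to 20.7 in KO cells, at q = 0.0351 per the authors' deposited table. The other FXYD gene, Fxyd3, stood at 0.737 and 2.198 FPKM, with p = 0.0648 and q = 0.895 per the authors' deposited table. The subunit Atp1b3 stood at 86.2 and 103 FPKM, with p = 0.018 and q = 0.566 per the authors' deposited table.

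In the list of WNK kinases and effectors, Sgk1 fell and 7 of 8 did not pass. Sgk1, a kinase induced by steroids and osmotic stress that raises the surface level of many carriers and of the epithelial sodium channel, fell from 52.1 to 29.9 FPKM. This is a 1.74-fold decrease with q = 0.00756 per the authors' deposited table. Its relative Sgk3 stood at 12.5 and 15.1 FPKM (q = 0.7803 per the authors' deposited table), and Wnk1, which controls the Slc12 carriers through phosphorylation, at 57.003 and 51.7.

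Among 15 ancillary proteins and carbonic anhydrases, 2 rose and none fell. Carbonic anhydrases supply the bicarbonate that Slc4 and Slc26 carriers move. Car12, the form at the cell surface, rose from 1.46 to 2.65 FPKM, and Car3, a cytosolic form, from 0.905 to 2.18, both with q = 0.00756 per the authors' deposited table. Both are low beside Car13 (18.9 and 23.5 FPKM), which did not pass. Basigin (Bsg), the chaperone of monocarboxylate carriers, stood at 573 and 557 FPKM.

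In the proton pump list, Atp6v0a4 rose and 14 of 15 did not pass. Atp6v0a4, a subunit known from acid-secreting cells of the kidney, rose, from 12.4 FPKM in WT to 17.9 in KO cells, at q = 0.00756 per the authors' deposited table. KO values were below WT values in 13 of the 15, against 5949 of all 11778 tested symbols. The differences were small, with a list median log2 ratio of −0.082. The 13 include Atp6v0c (293 and 277 FPKM), which forms the rotor. No gene was called in the lists of metal handling (12 tested, highest Mt2A as given above), of organic anion carriers and ABCC pumps (9 tested, highest Slco4a1 at 111 and 102 FPKM) or of mitochondrial channels (13 tested, highest Vdac3 at 157 and 158 FPKM).

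**Figure D5:**
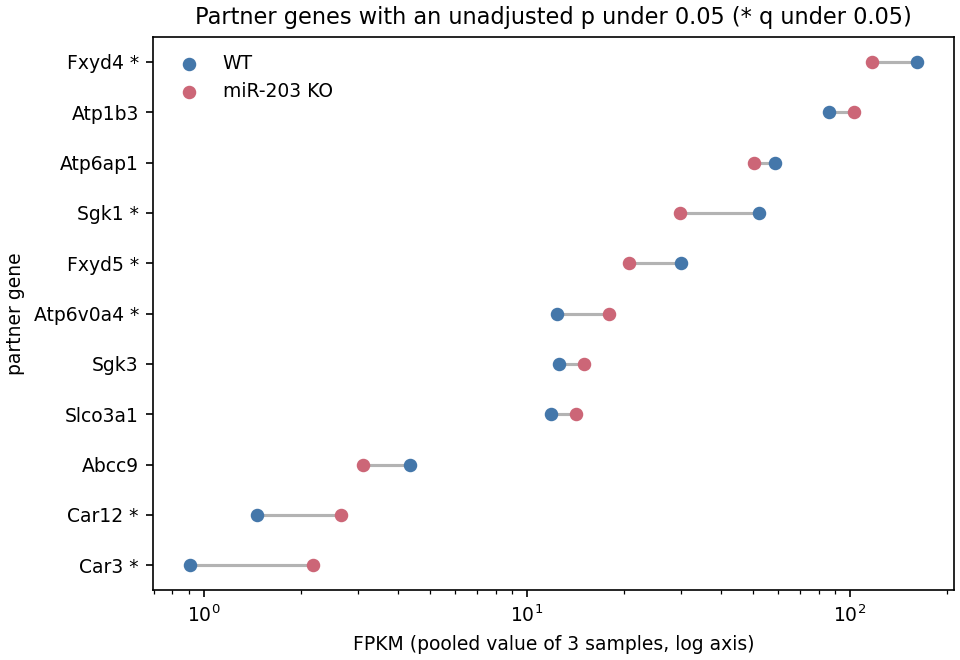
FPKM in WT (blue) and miR-203 KO cells (red), on a log axis, of the 11 partner genes with an unadjusted p under 0.05 in the authors' deposited table, each point 1 pooled value. Stars mark the 6 genes with q under 0.05, of which Sgk1, Fxyd4 and Fxyd5 are lower and Atp6v0a4, Car12 and Car3 higher in KO cells.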

How the data were processed

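Per the labels' protocols, libraries from total RNA kept strand through dUTP marking. The submitters' processing notes list TopHat 0.9, Cufflinks 2.2.1 and Cuffdiff 2.2.1.3 with rn6; which annotation and settings were used is not given in the sources used here. Per the file headers, the authors deposited 1 pooled FPKM per gene row and group, with a log2 fold change, a test statistic (a signed score), a p-value and a q-value. Of 26751 rows, 26459 were tested. Recomputed Benjamini-Hochberg q-values equalled the deposited ones.

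Python 3.11.15 with pandas 2.3.3 and NumPy 2.4.6 was used. The 149 members had 272 rows; the longest locus was kept, and the first listed where loci tied (32 symbols). None of the other 123 rows was called. In 4 cases a member shares a row with another symbol, and 8 members have a deposited log2 fold that differs from the ratio of their FPKM values by over 0.01. Named genes are the called members, the 8 largest increases and 8 largest decreases, the highest of each substrate group, members with p under 0.05, and called partner genes. Where a partner list had no call, its highest gene is named. A few genes that this rule or the lists hold are not reported here. Any further gene was picked for naming once its values had been seen. Members, substrate groups and lists were chosen with earlier results of these data known. The row choice, ratio and adjustment were tested on simulated data.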

Additional observations from a re-analysis of the deposited data

How the results depend on the processing

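The 3 calls became 5 at q under 0.1, with Slc30a4 and Slc22a4 added. They were the same 3 genes at q under 0.01, with a fold of at least 1.5, with the row of highest mean, with symbols that end after the carrier number and without shared rows. Among alternatives chosen after seeing the data, the 3 genes were the same without loci under 300 bases, and without chromosome 3 beyond 120 Mb 2 remained. The 6 partner calls were 4 at q under 0.01. Scaling KO to the summed FPKM moved the median of all symbols from −0.0033 to −0.15 and that of members to −0.14, so every direction given here is relative to the values as deposited. Under it Slc37a3 and Slc9a3r1 changed sign. The median of members lay between −0.012 and 0.0041 under the other alternatives. Of 200 recomputed values of named members, 4 moved by over 1.5 times, among them those of Slc39a4 and Slc45a1 with the deposited log2 fold. Of 84 group medians none did, but 13 changed sign, most of them under that scaling. No paired analysis was possible because replicates were pooled into 1 value per group, and leaving out each replicate was not run for the same reason.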
